A study of Mus musculus with 30 samples.

Results

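Mutually exclusive exons are neighbouring exons of a gene of which a messenger RNA carries one or the other. The choice swaps a segment of the protein for another version of it and leaves the rest of the protein in place, as in the flip and flop forms of glutamate receptors. NOVA2 is a neuronal RNA-binding protein that recognises YCAY motifs (Y is C or T) in pre-mRNA and thereby steers which exons are used. The splicing events described here are those that the authors' deposited tables class as mutually exclusive. They number 1065 distinct events in 551 genes, out of 4923 distinct events of all types and beside 1814 cassette exon events. An event was taken as a member by its deposited class alone, and events were matched between tables by the deposited name and isoform pair.

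The series holds 30 samples in 10 groups of 3, of which 6 groups with 18 samples enter the 4 splicing tables. Cortex was taken at embryonic day 18.5 and FACS-sorted, from wild-type mice with Emx1-Cre, Nova2-cKO mice with Emx1-Cre, wild-type mice with Gad2-Cre and Nova2-cKO mice with Gad2-Cre (cKO, conditional knockout). The Purkinje cell layer of the cerebellum was dissected at postnatal day 28 from wild-type and Nova2-cKO mice with Pcp2-Cre. All 6 groups were C57BL/6J, their libraries were depleted of ribosomal RNA, and controls and knockouts of a class carry the same Cre. Emx1-Cre is known to act in excitatory cortical neurons, Gad2-Cre in inhibitory neurons and Pcp2-Cre in Purkinje cells, so that only cells with Cre activity can lose Nova2, and the dissected layer also holds other cells. Whether the 3 samples of each group came from separate animals is not stated in the labels. The tables hold splicing events and no gene levels, so the sorted classes were not checked against marker genes, and Nova2 itself had 0 listed events.

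The authors' tables give a pooled level per group, which is the fraction supporting the first-named isoform of an event, and list only events with an FDR of at most 0.05, a difference of at least 0.1 and a coverage of at least 20. In the Purkinje table the groups are numbered without saying which is the control, so from it only the authors' difference, FDR and coverage were used, as the change from group 1 to group 2. There is no value per library, so no spread between replicates can be given and the depth of each library is unknown. Where exactly 1 other annotated exon lay between the flanking exons, it was 3′ of the first-named isoform's exon in 316 of 334 events (94.6%), so the level is read throughout as that of the 5′ exon, and a fall of it as a gain of the 3′ exon. The partner exon was found for 326 of 1056 event names, with 40 others having several candidates. These gave 242 distinct exon pairs, called resolved pairs below. Coordinates are on mouse build mm10 (GRCm38), counted from 1, and exon classes are those of GENCODE M21.

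The following pairs are shown because the largest or best-known exchanges rest on them. Each is printed 5′ to 3′ on the strand of the gene from GENCODE M21 transcripts of build GRCm38. In the first set, capitals mark YCAY, searched in the exon as TCAT or TCAC or CCAT or CCAC, overlaps included; the other strand was not searched because NOVA2 binds the RNA. Erbb4, the receptor of neuregulins, has its 5′ exon at chr1:68290439-68290483 and its 3′ exon at chr1:68290243-68290317, both on the minus strand. These are the juxtamembrane exons, and the 3′ exon encodes the form that metalloproteases can cleave. Of annotated internal coding exons of 45 and 75 nt, 42.4% and 66.9% hold at least 1 YCAY.
Erbb4 5′ exon: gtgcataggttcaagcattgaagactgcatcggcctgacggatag
Erbb4 3′ exon: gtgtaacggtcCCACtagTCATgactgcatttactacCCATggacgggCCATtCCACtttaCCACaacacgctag

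Dlg3 and Dlg2 encode scaffold proteins of glutamate synapses, SAP102 and PSD-93, and are paralogs. The Dlg3 pair lies at chrX:100808053-100808152 and chrX:100809862-100809907, and the Dlg2 pair at chr7:92417224-92417323 and chr7:92418088-92418133, all on the plus strand. Among annotated internal coding exons of the same length, 75.3% (100 nt) and 49.6% (46 nt) hold a YCAY.
Dlg3 5′ exon: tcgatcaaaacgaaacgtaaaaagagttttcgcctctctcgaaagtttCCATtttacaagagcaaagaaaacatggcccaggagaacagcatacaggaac
Dlg3 3′ exon: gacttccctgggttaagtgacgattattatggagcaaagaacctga
Dlg2 5′ exon: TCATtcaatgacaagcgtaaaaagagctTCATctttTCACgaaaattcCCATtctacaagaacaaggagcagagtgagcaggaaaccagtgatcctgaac
Dlg2 3′ exon: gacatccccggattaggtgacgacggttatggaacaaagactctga

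H2afy encodes the histone variant macroH2A1, whose mutually exclusive exons lie in its macrodomain, and the 3′ exon is that of the form that can bind ADP-ribose metabolites. Its exons lie on the minus strand at chr13:56089758-56089857 and chr13:56088252-56088342. Of annotated internal coding exons of 100 and 91 nt, 75.3% and 75.7% hold a YCAY.
H2afy 5′ exon: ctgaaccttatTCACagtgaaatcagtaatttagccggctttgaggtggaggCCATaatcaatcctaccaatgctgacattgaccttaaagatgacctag
H2afy 3′ exon: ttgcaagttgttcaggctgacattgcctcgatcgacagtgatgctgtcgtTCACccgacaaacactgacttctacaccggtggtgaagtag

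Agfg1, an adaptor protein with an ArfGAP domain and FG repeats, is shown because it was listed in all 3 knockout tables. Its exons lie at chr1:82880008-82880127 and chr1:82882228-82882437 on the plus strand. Of annotated internal coding exons of 120 and 210 nt, 86.4% and 97.2% hold a YCAY.
Agfg1 5′ exon: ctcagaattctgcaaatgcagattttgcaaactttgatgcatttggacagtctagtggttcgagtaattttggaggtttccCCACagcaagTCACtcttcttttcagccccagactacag
Agfg1 3′ exon: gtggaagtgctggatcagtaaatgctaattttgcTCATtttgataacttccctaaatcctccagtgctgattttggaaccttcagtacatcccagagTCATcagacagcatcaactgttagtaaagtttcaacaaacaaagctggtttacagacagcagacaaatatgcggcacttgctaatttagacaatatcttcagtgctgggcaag

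In the second set both exons of a pair have the same length, and capitals mark the bases that differ from the partner at the same position. Mapk9, the kinase JNK2, has the pair in its kinase domain at chr11:49873836-49873907 and chr11:49874264-49874335 on the plus strand, with 25 of 72 positions different. Gria2, an AMPA receptor subunit, has its flop exon (5′) at chr3:80691320-80691434 and its flip exon (3′) at chr3:80690404-80690518 on the minus strand, with 36 of 115 positions different. Cacna1d, the L-type calcium channel Cav1.3, has the pair for a pore-lining helix at chr14:30171956-30172059 and chr14:30171296-30171399 on the minus strand, with 22 of 104 positions different. Gnao1, the G protein alpha subunit of Go, has the pair at chr8:93953975-93954128 and chr8:93963384-93963537 on the plus strand, with 29 of 154 positions different.
Mapk9 5′ exon: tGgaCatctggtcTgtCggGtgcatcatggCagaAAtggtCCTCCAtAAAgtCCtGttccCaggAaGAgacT
Mapk9 3′ exon: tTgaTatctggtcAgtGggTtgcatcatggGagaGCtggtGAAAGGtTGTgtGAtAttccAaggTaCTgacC
Gria2 5′ exon: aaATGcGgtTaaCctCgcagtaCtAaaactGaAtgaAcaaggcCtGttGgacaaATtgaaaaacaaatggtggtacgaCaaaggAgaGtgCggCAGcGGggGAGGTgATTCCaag
Gria2 3′ exon: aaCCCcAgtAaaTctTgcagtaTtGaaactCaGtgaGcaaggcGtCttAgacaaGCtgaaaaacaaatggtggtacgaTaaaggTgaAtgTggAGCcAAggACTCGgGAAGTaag
Cacna1d 5′ exon: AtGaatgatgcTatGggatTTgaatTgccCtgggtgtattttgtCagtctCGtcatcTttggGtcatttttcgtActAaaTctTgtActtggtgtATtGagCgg
Cacna1d 3′ exon: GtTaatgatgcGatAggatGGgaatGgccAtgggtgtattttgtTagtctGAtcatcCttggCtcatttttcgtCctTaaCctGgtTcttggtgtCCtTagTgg
Gnao1 5′ exon: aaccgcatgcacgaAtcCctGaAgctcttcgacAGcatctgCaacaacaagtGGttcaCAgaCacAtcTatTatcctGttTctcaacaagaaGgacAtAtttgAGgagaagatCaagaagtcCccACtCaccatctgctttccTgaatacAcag
Gnao1 3′ exon: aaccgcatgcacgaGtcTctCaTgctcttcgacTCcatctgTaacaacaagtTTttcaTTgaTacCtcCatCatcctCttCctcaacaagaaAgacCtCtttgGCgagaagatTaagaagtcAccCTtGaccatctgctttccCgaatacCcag

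The class name was stricter than the annotation of most pairs. In 162 of the 242 resolved pairs (66.9%) an annotated transcript carried both exons, and in 67 an annotated transcript joined the flanks and skipped both. Neither was annotated for 48 pairs in 35 genes. The authors' deposited tables themselves listed a tandem cassette holding both exons for 19 of the 242 pairs, among them those of Grik2, Atp11b, Syt7, Pdzd4 and Epb4.1. The exons of a pair lay a median 4703 nt apart.

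Of the 48 pairs that no annotated transcript joins or skips together, 12 consisted of 2 coding exons: Cacna1d, Cyfip1, Dlg2, Dlg3, Erbb4, Gnao1, H2afy, Kcnn2, Mapk9, Mef2a, Mthfsd and Ogdh. In 11 of these 12 pairs the exons had the same length modulo 3, so that the exchange keeps the reading frame, the exception being Kcnn2 with 419 and 141 nt. Over all 48 pairs that no annotated transcript joins or skips together, coding or not, 23 (47.9%) did. Over the pairs annotated together, 72 of 162 (44.4%) did, and over all resolved pairs 110 of 242 (45.5%). These larger sets were not limited to coding exons, so they are no matched comparison for the 12 pairs. Both exons of the 12 pairs had to be coding in annotated protein-coding transcripts. That choice can favour a kept reading frame in advance, so the count of 11 is not read as a result. The 12 pairs lay a median 456 nt apart, with 30 nt in Mthfsd, 64 nt in Mef2a and 121 nt in Erbb4. This grouping was made after the tables had been seen, and no test was run on it. For comparison, 53.9% of 1730 listed single cassette exons had a length that is a multiple of 3. All other resolved pairs of 2 coding exons in this text lie outside the 12. These include pairs of Agfg1, Cask, Gphn, Epb4.1, Camk2g, Kcnc2, Cadm1, Smarce1, Adam22, Ablim1, Syt7 and Gria2. For these an annotated transcript carries or skips both exons, and a change of level need not be a plain exchange.

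The 5′ exons of the resolved pairs ranged from 12 to 2880 nt with a median of 113.5 nt, and the 3′ exons from 15 to 5217 nt with a median of 122.5 nt. Only 9 pairs had exons of the same length. Sequence could be compared for 123 pairs of the Emx1-Cre table, with a median identity of 38.1% in a global alignment, and 5 of them reached 60%. In Gad2-Cre this held for 3 of 106 pairs, and between the controls for 2 of 25. Coding pairs above 60%, apart from Mapk9, Gria2, Cacna1d and Gnao1, were those of Tnc (67.4%), Mthfsd (64.9%) and Wdfy1. The 55-nt exons of Wdfy1 at chr1:79729656-79729710 and chr1:79722214-79722268 were 100% identical, so reads within them cannot be assigned to one exon, and the authors' deposited change of its 5′ exon, 0.129 to 0.368 in Emx1-Cre and 0.134 to 0.419 in Gad2-Cre, is uncertain. Its sequence is shown because it is the same for both exons, with no capitals since no base differs.
Wdfy1 5′ exon: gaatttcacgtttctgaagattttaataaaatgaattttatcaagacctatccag
Wdfy1 3′ exon: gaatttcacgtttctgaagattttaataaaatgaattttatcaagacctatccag

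**Figure D1:**
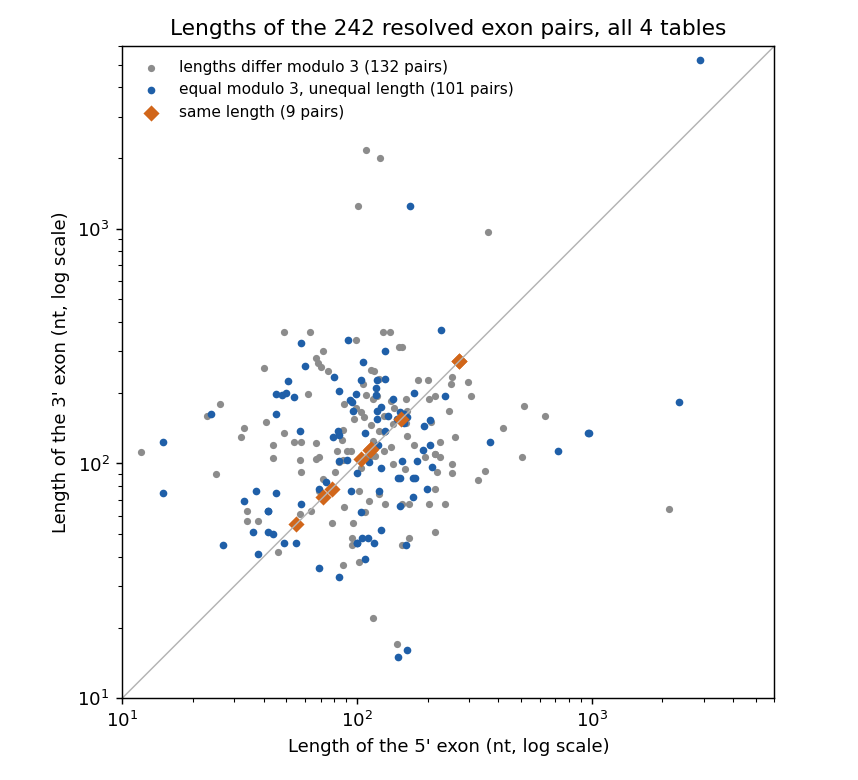
Lengths of the 242 resolved exon pairs of all 4 tables, with the 5′ exon on the x axis and the 3′ exon on the y axis (nt, log scales). The grey line marks equal lengths, on which the 9 orange pairs lie. Blue points are 101 pairs equal modulo 3 but unequal in length, and grey points are the 132 pairs that differ modulo 3.

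Between Emx1-Cre control and Nova2-cKO cortex 637 mutually exclusive events in 340 genes were listed, 23.8% of the 2682 events of the authors' table. Between Gad2-Cre control and cKO 489 events in 277 genes were listed (24.8% of 1970). The Purkinje table listed 51 events in 24 genes (8.46% of 603), and the table of Emx1-Cre against Gad2-Cre controls 143 events in 76 genes (11.6% of 1236). Several events can share an exon: 212 and 183 of the genes in the 2 cortical knockout tables had a single event, while Prss36 had 13 in the first and Myt1l had 17 in the second. Coverage of an event was a median 114 in both cortical knockout tables, 83.9 in the Purkinje table and 72.9 between the controls, beside 71, 64.0, 88.5 and 52 over all events of those tables.

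The differences had smaller medians than those of cassette exons in all 4 tables. The median size of a difference was 0.185 in Emx1-Cre, 0.171 in Gad2-Cre, 0.154 in the Purkinje layer and 0.180 between the controls. Cassette exons of the same tables had medians of 0.233, 0.238, 0.183 and 0.204. A difference of at least 0.3 was reached by 109 of 637 events in Emx1-Cre (17.1%, beside 25.8% of all listed events) and by 66 of 489 in Gad2-Cre (13.5%, beside 23.4%). It was reached by 9 of 51 events in the Purkinje layer (17.6%, beside 18.9%) and by 29 of 143 between the controls (20.3%, beside 22.2%). Events with an exon that the same table also listed as a cassette had larger differences in the knockout tables, with a median of 0.253 over 143 events in Emx1-Cre against 0.169 over the other 494, and 0.236 over 121 events in Gad2-Cre against 0.157 over 368. Their median coverage was lower, 82.6 against 119.5 and 81.0 against 129.8, and its part in this was not tested. In the Purkinje layer the medians were 0.219 and 0.152, with the higher coverage in the events that shared an exon, 101 against 63.8. Between the controls both medians were alike, 0.180 and 0.181. A cassette is itself listed only past the same thresholds and can share reads with the event, so this split can favour larger differences in advance.

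The 5′ exon was more often the one that fell in the Emx1-Cre knockout, while the Gad2-Cre share was near that of all listed events. Taking the largest event of each gene, the 5′ exon was lower in the Emx1-Cre cKO in 227 of 340 genes (66.8%) and higher in 113. In Gad2-Cre it was lower in 164 of 277 genes (59.2%) and higher in 113. Over all listed events of any type the first-named isoform, which for a cassette is the one with the exon, was lower in the cKO in 51.6% and higher in 48.4% in Emx1-Cre, and lower in 58.6% and higher in 41.4% in Gad2-Cre. These shares over all events, here and below, count every event and not 1 per gene. Counted per event as well, the 5′ exon was lower in 68.0% of the mutually exclusive events in Emx1-Cre and in 62.0% in Gad2-Cre. In the Purkinje layer the 5′ exon was lower in group 2 in 14 of 24 genes (58.3%, beside 32.2% of all its events) and higher in 10 (beside 67.8%). In Gad2-Cre controls, set against those of Emx1-Cre, it was lower in 42 of 76 genes (55.3%, beside 36.3%) and higher in 34 (beside 63.7%). With an FDR of at most 0.01 the Gad2-Cre share was 53.1% of 175 genes, and that of the Purkinje layer 46.7% of 15, so its direction turned. The Purkinje share was also under 50%, at 49.0%, when all 51 events were counted. That between the controls was 50.3% when all events were counted and 48.65% of 37 unique exon pairs.

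Most events moved away from the exon that controls preferred, as most listed events of any type did. Where the 5′ exon was at 0.5 or more in Emx1-Cre controls it fell in 365 of 390 events, and where it was below 0.5 it rose in 179 of 247. In Gad2-Cre these were 242 of 269 and 159 of 220. Together 85.4% of Emx1-Cre events and 82.0% of Gad2-Cre events moved away from the form that was in the majority in controls, beside 75.0% and 75.1% of all listed events. A level near 1 can hardly rise and one near 0 can hardly fall, which fixes part of these counts. The control level also enters both the grouping and the difference, so counting error in it pushes the same way. The majority form changed, with the level crossing 0.5, in 243 events in 169 genes in Emx1-Cre (38.1%, beside 35.2%) and in 173 events in 134 genes in Gad2-Cre (35.4%, beside 34.1%). Between the controls the majority form differed in 55 of 143 events (38.5%, beside 30.3%), and 83 of 143 (58.0%, beside 65.6%) lay away from the majority form of Emx1-Cre controls.

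**Figure D2:**
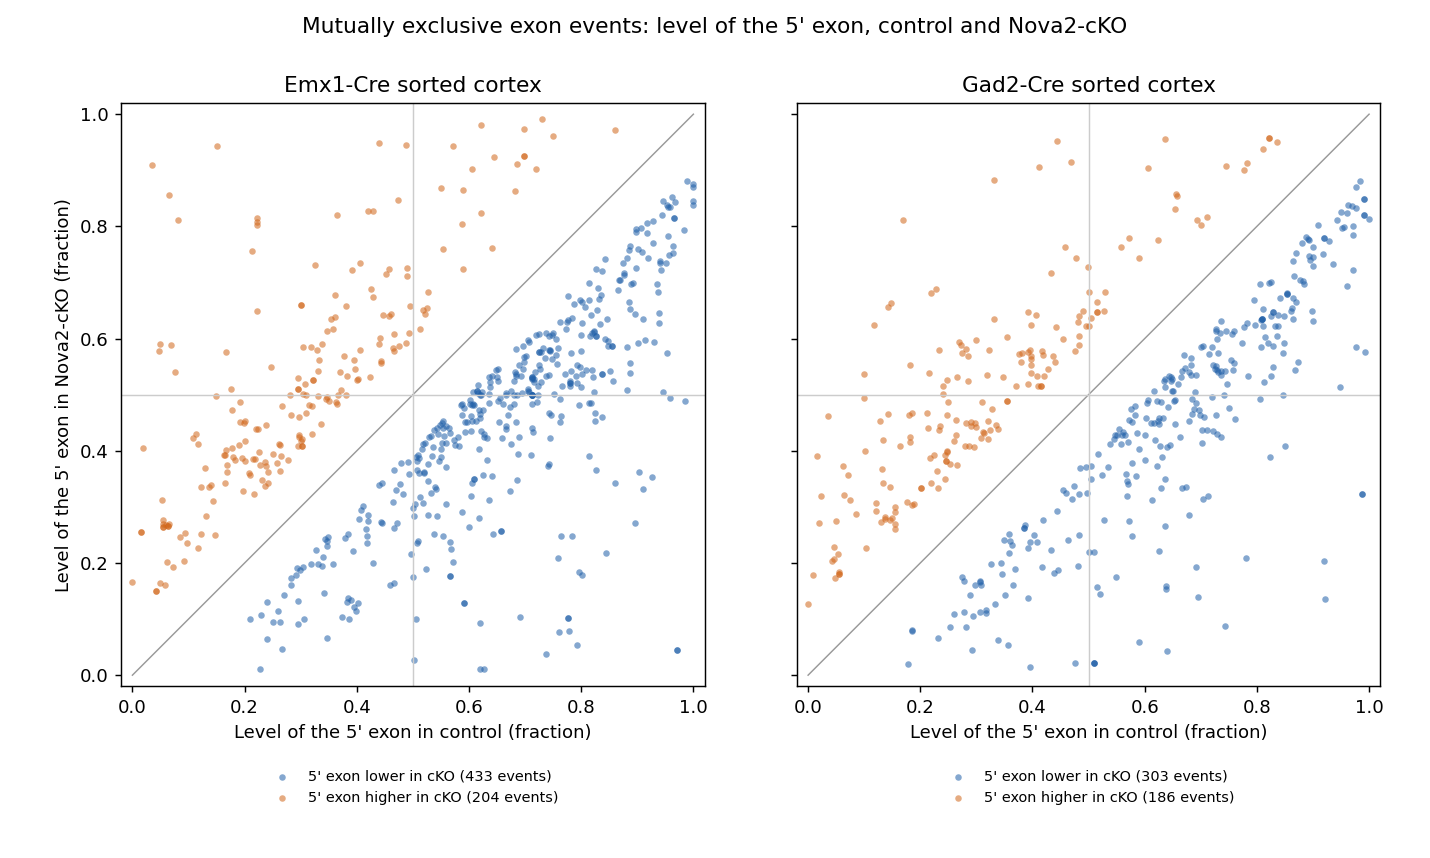
Level of the 5′ exon (fraction) in control (x axis) and Nova2-cKO (y axis) for 637 events of Emx1-Cre cortex (left) and 489 of Gad2-Cre cortex (right), 1 point per event. Points below the diagonal (blue, 433 and 303) had a lower 5′ exon in the cKO and those above it (orange, 204 and 186) a higher one. The empty band along the diagonal is the authors' minimum difference of 0.1, and grey lines mark 0.5.

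Receptors and channels of the neuronal surface held some of the largest exchanges. In Erbb4 the authors' deposited level of the 45-nt exon fell from 0.743 in Gad2-Cre controls to 0.0880 in the cKO (FDR 1.93e-191, coverage 1492). In Emx1-Cre it fell from 0.783 to 0.249 at a coverage of 63 in the authors' table. In both classes the 75-nt exon for the cleavable form thus became the main one. The authors' cassette values for the same exons in Gad2-Cre went from 0.947 to 0.316 for the 45-nt exon and from 0.170 to 0.918 for the 75-nt exon, from reads shared with the pair. The upstream 155-nt exon of Erbb4 was listed against the same 45-nt exon and rose, from 0.443 to 0.953 in Gad2-Cre and from 0.325 to 0.732 in Emx1-Cre by the authors' values.

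In Grik2, a kainate receptor subunit, the 87-nt exon was at 0.501 in Emx1-Cre controls and 0.0263 in the cKO in the authors' deposited table. In Gad2-Cre the authors' values were 0.590 and 0.0596. Both of its exons are annotated as partly coding. In Kcnc2, the fast potassium channel Kv3.2, the 104-nt exon fell in Gad2-Cre from 0.639 to 0.0435 by the authors' values, against a 165-nt coding partner, and no event of this gene was listed in Emx1-Cre. In Ptprs, a receptor phosphatase of axons and synapses, the 59-nt coding exon rose from 0.332 to 0.883 in Gad2-Cre and from 0.750 to 0.961 in Emx1-Cre in the authors' deposited tables.

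Gria2 was listed in Emx1-Cre and not in Gad2-Cre. By the authors' values its flop exon rose from 0.250 in Emx1-Cre controls to 0.394 after loss of Nova2 (FDR 3.8e-14, coverage 544). The flip exon, as the first-named exon of another event, fell from 0.601 to 0.491, but against a partly coding 249-nt exon it rose from 0.521 to 0.644 by the authors' values. Whether Gad2-Cre differs from Emx1-Cre in Gria2 was not tested. Gria1, another AMPA subunit, was listed in Gad2-Cre for a 168-nt exon that fell from 0.649 to 0.507 by the authors' values. In the cell adhesion molecule Cadm1 the 84-nt exon rose from 0.213 to 0.755 in Emx1-Cre in the authors' deposited table. In Gad2-Cre it rose from 0.219 to 0.681 by the authors' values. These were the largest of its events, against a 132-nt exon. Another event of the same Cadm1 pair stayed below 0.5, from 0.202 to 0.454 in Emx1-Cre and from 0.213 to 0.441 in Gad2-Cre. Its events against a 33-nt exon rose as well.

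Scaffold genes exchanged the same exons in paralogs. The 100-nt exon of Dlg3, printed above, rose in all 3 of its Emx1-Cre contexts, which use different flanks, from 0.0354 to 0.910, from 0.0811 to 0.812 and from 0.0755 to 0.540 in the authors' deposited table. In Gad2-Cre the authors' values of these contexts were 0.142 to 0.656, 0.117 to 0.625 and 0.233 to 0.579. Its paralog Dlg2 has a pair of the same lengths, 100 and 46 nt, and its 100-nt exon rose as well. It went from 0.303 to 0.420 in Emx1-Cre and from 0.285 to 0.524 in Gad2-Cre in the authors' deposited tables, the largest of its events in each. The Dlg3 and Dlg2 exons are identical at 66 of 100 positions in the 5′ exon (66.0%) and 36 of 46 in the 3′ exon (78.3%). Dlg2 was picked out after its values were seen.

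Cask, another scaffold of the same protein class, has a 69-nt and a 36-nt exon, both multiples of 3. The 69-nt exon rose from 0.469 to 0.914 in Gad2-Cre and from 0.682 to 0.863 in Emx1-Cre in the authors' deposited tables. The authors' cassette value of its 36-nt partner fell from 0.880 to 0.190 in Gad2-Cre. In Gphn, the scaffold of inhibitory synapses, the level of a 108-nt exon against its 135-nt neighbour rose from 0.0349 to 0.462 in Gad2-Cre and from 0.198 to 0.449 in Emx1-Cre in the same event by the authors' values. In the Purkinje layer a different exon of Gphn was listed, of 42 nt, whose level was 0.419 higher in group 2 in the authors' deposited table.

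Kinases and membrane enzymes followed. In Camk2g, a calcium-dependent kinase, the authors' table listed a 33-nt and a 69-nt coding exon: the 33-nt exon fell from 0.910 to 0.332 in Emx1-Cre and from 0.976 to 0.585 in Gad2-Cre. In Mapk9 the 5′ exon fell from 0.571 to 0.274 in Gad2-Cre by the authors' values (FDR 0.00267, coverage 112). Its relative Mapk10, JNK3, was listed in Gad2-Cre for a 115-nt UTR exon, from 0.589 to 0.743 by the authors' values. In Gnao1 the 5′ exon fell from 0.560 to 0.306 and, in a second event of the same pair, from 0.338 to 0.194 in Emx1-Cre in the authors' deposited table. Atp11b, a phospholipid flippase, raised its 86-nt coding exon from 0.229 to 0.688 in Gad2-Cre by the authors' values. The same event rose from 0.151 to 0.943 in Emx1-Cre. As a cassette, however, this exon was listed in Gad2-Cre as falling from 0.364 to 0.153, so its direction there depended on the event.

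Lmtk3, a kinase of neuronal endosomes, had 3 events per cortical table that differ only in the start of the 5′ exon. With the annotated start, at chr7:45787394-45787470, the authors' level fell from 0.986 to 0.488 in Emx1-Cre, while the versions of 113 and 70 nt, with starts that are not annotated, fell to 0.0449. In Gad2-Cre the corresponding authors' values were 0.993 to 0.576 with the annotated start and 0.988 to 0.322 with the others. Adam22, the synaptic receptor of LGI proteins, had the same feature against a coding exon of 62 nt. Its annotated 108-nt exon fell from 0.888 to 0.539 in Emx1-Cre and from 0.949 to 0.514 in Gad2-Cre by the authors' values, while a 104-nt version of it that is not annotated fell from 0.801 to 0.178 in Emx1-Cre. The events of Lmtk3 and of Adam22 thus share the direction, and the sizes depend on which exon edge is counted.

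Genes of the cytoskeleton moved in both directions. Map4, a microtubule-associated protein, was listed with a lower level of a 113-nt coding exon in the second group of all 3 knockout tables. The authors' deposited levels were 0.627 and 0.0105 in Emx1-Cre, and 0.638 and 0.159 in Gad2-Cre. In the Purkinje layer the level of the same Map4 event was 0.265 lower in group 2 than in group 1 (coverage 620) by the authors' difference. With another pair of flanks the exon of Map4 fell only from 0.832 to 0.670 in Emx1-Cre by the authors' values. An 82-nt exon of Map4, with a 113-nt partner inferred from annotation, was listed as falling too. It went from 0.494 to 0.359 in Emx1-Cre and from 0.629 to 0.334 in Gad2-Cre by the authors' values. With that inferred partner a 113-nt exon would gain there, so its direction would depend on the event. In Epb4.1, which links spectrin to actin, the level of a 42-nt exon against a 63-nt exon fell from 0.737 to 0.0377 in Emx1-Cre by the authors' values at a coverage of 26.5. A tandem cassette of both Epb4.1 exons was listed too, so they are not strictly exclusive. Ablim1, an actin-binding LIM protein, had a 48-nt exon that fell from 0.896 to 0.271 in the authors' Emx1-Cre table. In another listed event the same Ablim1 exon was the 3′ partner of a 105-nt exon that fell from 0.861 to 0.343 by the authors' values, so the direction of the 48-nt exon depended on the exon it was set against.

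Tropomyosins, which coat actin filaments and are known for homologous exon pairs, gained the 5′ exon instead. The authors' level of the 79-nt exon of Tpm1 rose from 0.622 to 0.980 in Emx1-Cre and from 0.412 to 0.906 in Gad2-Cre, at coverages of 37.6 and 30.5. For the 76-nt exon of Tpm3 the authors' values rose from 0.05 to 0.590 in Emx1-Cre and from 0.102 to 0.4 in Gad2-Cre. The partner exons in these events were not resolved.

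The exchange in Agfg1 was listed in all 3 knockout tables. In its largest event, the authors' level of its 120-nt exon, against the 210-nt exon, rose from 0.222 to 0.814 in Emx1-Cre and from 0.147 to 0.663 in Gad2-Cre. The other listed events of this pair rose less and stayed below 0.5. They went from 0.116 to 0.411 and from 0.192 to 0.451 in Emx1-Cre. In Gad2-Cre they went from 0.0753 to 0.311 and from 0.132 to 0.368. In the Purkinje layer the level of the largest Agfg1 event was 0.336 higher in group 2 than in group 1 by the authors' difference. Those of the other events of the pair were 0.156 and 0.128 higher.

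Regulators of RNA and chromatin formed a further group. Smarce1, a subunit of the BAF chromatin remodeller, lost a 44-nt coding exon, from 0.620 to 0.0925 in Emx1-Cre and from 0.635 to 0.266 in Gad2-Cre in the authors' tables. Cnot2 and Pan3, both of the deadenylation machinery, lost the 5′ exon in both classes. The authors' values of the 58-nt exon of Cnot2, which GENCODE places in a transcript targeted for decay, were 0.824 and 0.389 in Gad2-Cre and 0.813 and 0.485 in Emx1-Cre. Those of the 162-nt exon of Pan3 were 0.695 and 0.139 in Gad2-Cre and 0.390 and 0.133 in Emx1-Cre, at coverages of 32 and 26. Mef2a, a transcription factor with known alternative exons of 132 and 138 nt, lowered the 132-nt exon from 0.777 to 0.621 in Gad2-Cre in the authors' deposited table.

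Several of the largest remaining differences rested on few reads or on exons outside the annotation. Arpp21, an RNA-binding phosphoprotein of neurons, had a 34-nt region that is not an annotated exon fall from 0.778 to 0.0793 in Emx1-Cre, while its annotated 38-nt coding exon fell from 0.837 to 0.460, by the authors' values. Against a 57-nt partner a 38-nt exon of Arpp21 fell only from 0.837 to 0.536. A 102-nt exon of Arpp21 with a 38-nt inferred partner also fell, from 0.343 to 0.242 at a coverage of 28.4. By that inferred partner a 38-nt exon would gain there. Mycbp2, a ubiquitin ligase of axons, lowered a 156-nt coding exon from 0.759 to 0.209 in Emx1-Cre at a coverage of 54 in the authors' table. Atg4a, a protease of autophagy, raised a 72-nt coding exon against a noncoding one, from 0.488 to 0.945 in Emx1-Cre and from 0.170 to 0.811 in Gad2-Cre by the authors' values. Slc25a42, a mitochondrial carrier, lowered a 26-nt coding exon, from 0.744 to 0.423 in Emx1-Cre and from 0.692 to 0.194 in Gad2-Cre, at coverages of 25 and 24 in the authors' tables. Pak3, a kinase of dendritic spines, was listed for a UTR exon of 160 nt, from 0.0690 to 0.588 in Emx1-Cre at a coverage of 29 in the authors' table.

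**Figure D3:**
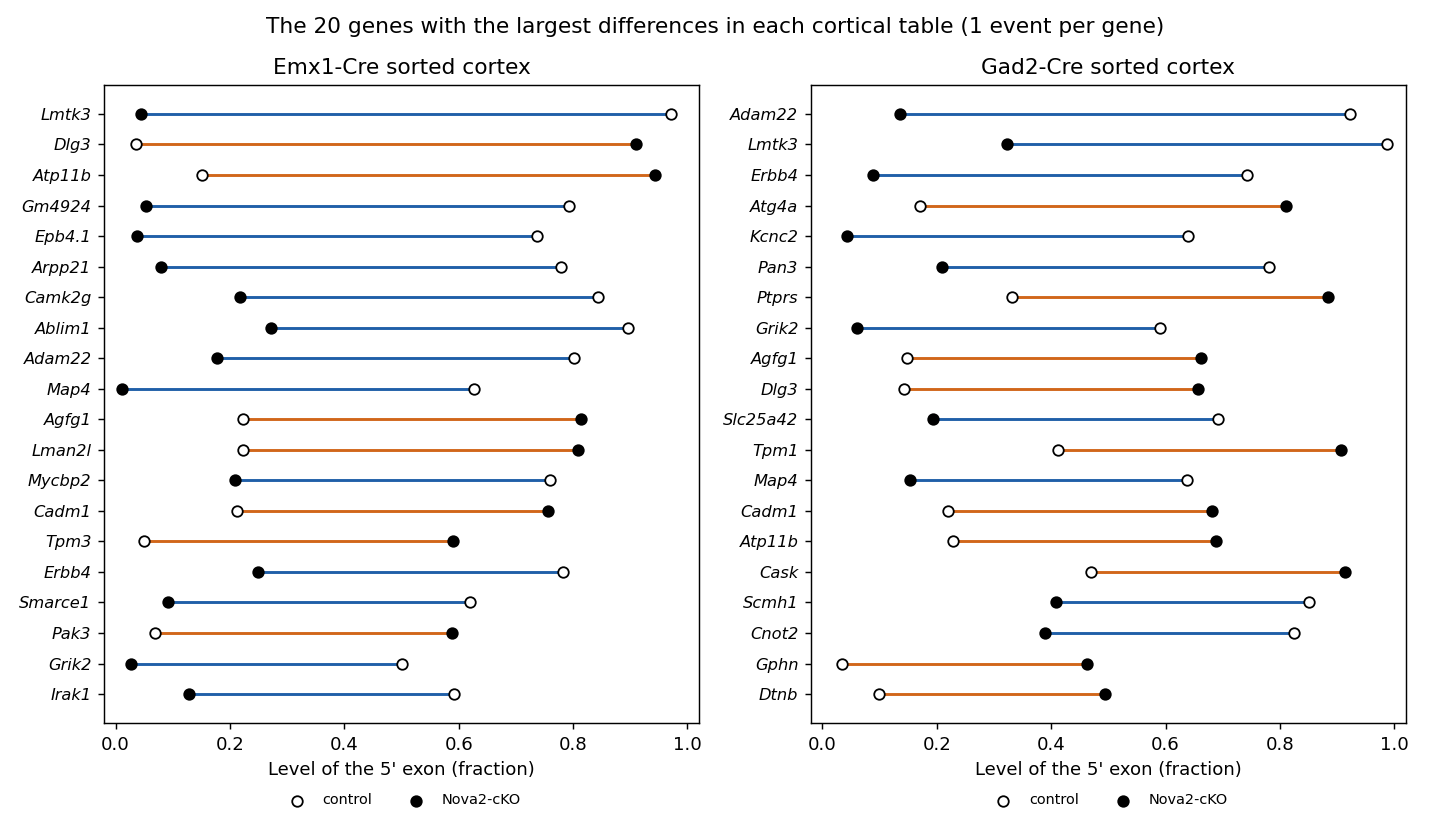
Level of the 5′ exon (fraction, x axis) in control (open) and Nova2-cKO (filled) for the 20 genes with the largest differences in Emx1-Cre (left) and Gad2-Cre (right), 1 event per gene, with no error bars since the tables hold 1 pooled level per group. Blue lines are falls, such as Erbb4, and orange lines are rises, such as Dlg3. In Emx1-Cre all 20 crossed 0.5, which picking the largest differences largely fixes in advance. Of all mutually exclusive events in Emx1-Cre 38.1% crossed it.

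Events listed in both cortical classes went the same way with few exceptions. The 2 cortical knockout tables, which share no samples, had 190 events in 105 genes in common, 29.8% of the Emx1-Cre events and 38.9% of those of Gad2-Cre. Among other event types the shares were 31.0% and 42.7%. Of the 190 events, 122 had a lower 5′ exon in both cKO groups and 64 a higher one, so 186 (97.9%, exact 95% interval 94.7% to 99.4%, counting error only) went the same way. This interval treats overlapping events of a gene as separate. Among other types 97.3% of 633 shared events did. The difference was larger in Emx1-Cre in 111 events and larger in Gad2-Cre in 79.

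The 4 exceptions lay in Eefsec, Osbpl1a (2 events) and Zfp516. In Eefsec, the elongation factor of selenocysteine, the authors' level of a 208-nt exon rose from 0.439 to 0.590 in Emx1-Cre and fell from 0.825 to 0.701 in Gad2-Cre. Another event of the same exon, against a 97-nt partner, rose in both authors' tables, from 0.0526 to 0.313 and from 0.0531 to 0.216. In Osbpl1a, an oxysterol-binding protein, the 82-nt exon rose from 0.320 to 0.431 in Emx1-Cre and fell from 0.743 to 0.542 in Gad2-Cre in the authors' tables. The Osbpl1a levels of both cKO groups thus lay between those of the control groups. Whether the changes of these genes differ between the classes was not tested, as the tables used here give no value per library.

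**Figure D4:**
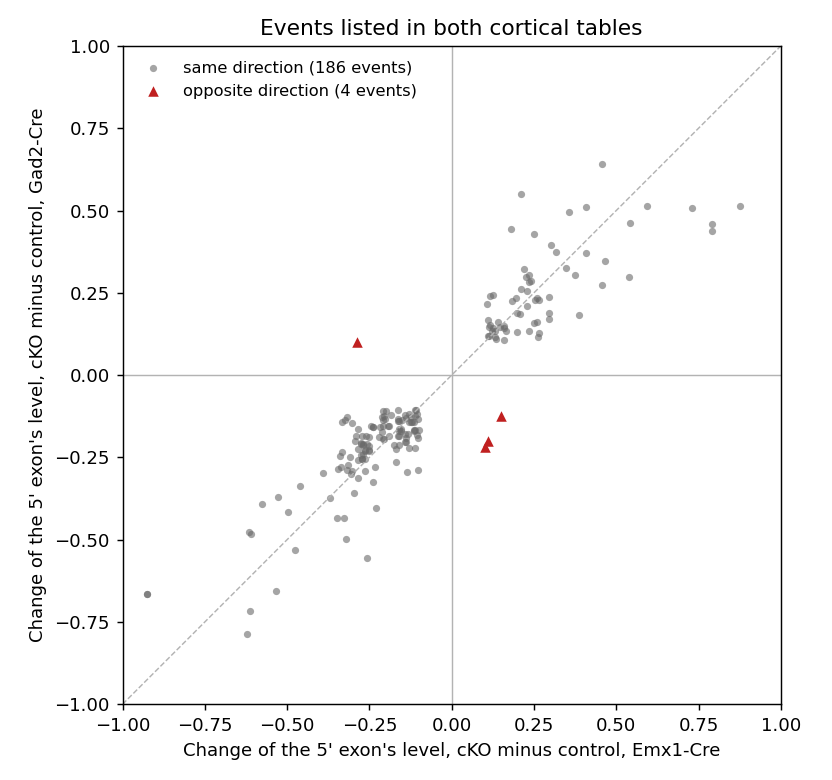
Change of the 5′ exon's level, cKO minus control, in Emx1-Cre (x axis) and Gad2-Cre (y axis) for the 190 events listed in both tables. The dashed line marks equal changes. The 186 grey points lie in the quadrants of same direction and the 4 red triangles, of Eefsec, Osbpl1a and Zfp516, in the others. Values under 0.1 are absent because the tables do not list them.

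In the Purkinje layer the largest difference was in Syt7, a calcium sensor of vesicle release. Its 369-nt exon was 0.451 lower in group 2 than in group 1 against a 123-nt exon, by the authors' deposited difference (coverage 79). The same table listed the 123-nt exon as a cassette 0.514 higher in group 2. The H2afy exon of 100 nt was 0.269 lower in group 2 (FDR 1.76e-12, coverage 470) by the authors' difference. The macroH2A1 exon for ADP-ribose binding was thus the more used in group 2, and the authors' cassette differences of both exons, 0.258 lower and 0.245 higher, rest on shared reads.

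Klf7, a transcription factor of neurite growth, had a 628-nt coding exon 0.192 lower in group 2 of the Purkinje table, and this exon also fell in Emx1-Cre, from 0.787 to 0.661, by the authors' values. Smad2, a transducer of TGF-beta signals, was listed in 3 tables for a 205-nt region that is not an annotated exon. By the authors' values it was 0.270 lower in group 2 of the Purkinje layer, and went from 0.403 to 0.128 in Emx1-Cre and from 0.432 to 0.223 in Gad2-Cre. For Agfg1, Map4, Smad2 and Klf7 the change from group 1 to group 2 had the sign of the cortical change from control to cKO. For the 132-nt and 228-nt exons of Syt7, listed with different flanks, it had the opposite sign: the level rose from 0.589 to 0.865 in Emx1-Cre at a coverage of 37.0 and was 0.311 lower in group 2 of the Purkinje layer at a coverage of 235, by the authors' values. The Purkinje table does not name which of its groups is the control.

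Between control neurons, Cacna1d used its 5′ exon at 0.306 in Emx1-Cre and 0.602 in Gad2-Cre in the authors' deposited table (FDR 0.0066, coverage 93). The authors' cassette values of the 5′ exon were 0.236 and 0.439 and those of the 3′ exon 0.608 and 0.253. Pkm, the pyruvate kinase with a textbook exon pair, was listed at 0.586 in Emx1-Cre and 0.710 in Gad2-Cre for a 163-nt 5′ region against the 167-nt exon, at a coverage of 1245 in the authors' table. Its 5′ region is not an annotated exon. Cyfip1, a regulator of actin and translation, has a pair of 148 and 154 nt with authors' levels of 0.698 and 0.884. Flna, an actin cross-linker, had a 57-nt region that is not an annotated exon at 0.434 and 0.875 in the authors' table. The largest difference between the controls was in Ercc4, a subunit of a DNA repair nuclease, with a 196-nt coding exon at 0.222 in Emx1-Cre and 0.763 in Gad2-Cre by the authors' values, at a coverage of 36. Anks1b, a scaffold of the postsynaptic density, had a 78-nt coding exon at 0.567 in Emx1-Cre and 0.919 in Gad2-Cre in the authors' table.

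Of the 143 events that differed between the controls, 15 were also listed in both cortical knockout tables. The corresponding share over other event types was not counted, so this number is not read as a trait of these exons. These comparisons share control samples, so only the levels are given side by side. For Ptprs the authors' deposited levels were 0.750 in Emx1-Cre controls, 0.961 in Emx1-Cre cKO, 0.332 in Gad2-Cre controls and 0.883 in Gad2-Cre cKO. For Dtnb, a part of the dystrophin complex, they were 0.246, 0.549, 0.0989 and 0.493 in the same order of the authors' groups. For Clip1, which binds growing microtubule ends, they were 0.603, 0.320, 0.805 and 0.493 for a 717-nt exon in the authors' tables. For Pdzd4 they were 0.443, 0.273, 0.703 and 0.438, and for Macf1, a spectraplakin, 0.117, 0.228, 0.00943 and 0.178 by the authors' values. In Ptprs the control groups stood far apart and the cKO groups near each other, while in Clip1 both classes fell and kept their order.

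**Figure D5:**
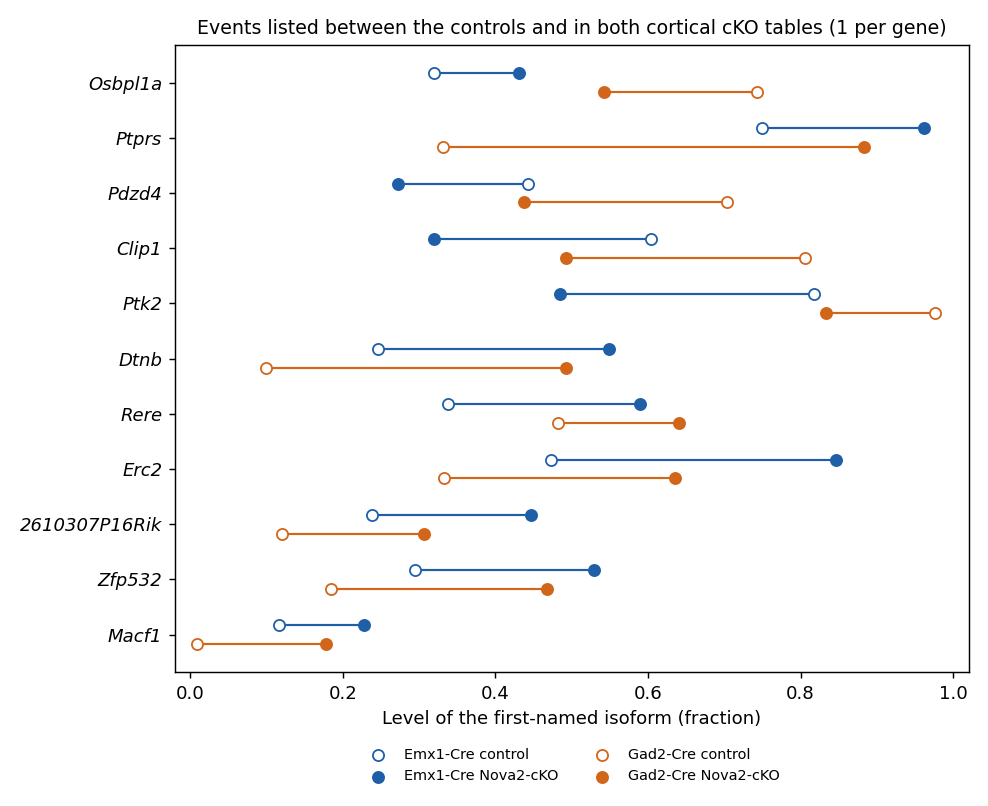
Level of the first-named isoform (fraction, x axis) in control (open) and Nova2-cKO (filled) for Emx1-Cre (blue) and Gad2-Cre (orange), for the 11 genes with an event listed between the controls and in both knockout tables, 1 event per gene. In Ptprs the cKO groups lie at 0.961 and 0.883 and the controls at 0.750 and 0.332. In Osbpl1a the lines run in opposite directions.

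Other genes with large differences or with listings in several tables had varied roles. Celf2, an RNA-binding regulator of splicing, had a 144-nt exon that lost to a 172-nt exon, from 0.798 to 0.549 in Emx1-Cre and from 0.746 to 0.518 in Gad2-Cre by the authors' values. For Ptk2, the focal adhesion kinase, the authors' levels of a 104-nt UTR exon went from 0.797 to 0.482 in Emx1-Cre and from 0.847 to 0.574 in Gad2-Cre. The 219-nt exon of Tmem234, a transmembrane protein, fell against a 92-nt exon, from 0.644 to 0.252 and from 0.728 to 0.430 by the authors' values. These 3 events were lower in the cKO of both cortical classes. A 71-nt exon of Rere, a transcriptional corepressor, went the other way, from 0.338 to 0.590 in Emx1-Cre and from 0.482 to 0.641 in Gad2-Cre in the authors' tables. Erc2, a protein of the presynaptic active zone, had a 797-nt partly coding exon that rose from 0.364 to 0.820 in Emx1-Cre and from 0.241 to 0.516 in Gad2-Cre by the authors' values. Cadps, a priming factor of dense-core vesicles, had a 107-nt exon that fell from 0.674 to 0.327 in Emx1-Cre and from 0.721 to 0.436 in Gad2-Cre by the authors' values. In Gad2-Cre an 89-nt exon of Scmh1, a Polycomb group protein, fell from 0.851 to 0.408 by the authors' values. Irak1, a kinase of interleukin-1 signalling, had a 189-nt exon whose authors' level fell from 0.591 to 0.129 in Emx1-Cre at a coverage of only 22.0. A 601-nt exon of the kinase gene Stk35 was 0.291 lower in group 2 of the Purkinje layer by the authors' difference, at a coverage of 31.0.

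A list of 42 genes known for homologous mutually exclusive exons was followed through the tables. Of them 5 were listed in Emx1-Cre (Gria2, Fyn, Tpm1, Tpm3 and Slc8a1), 7 in Gad2-Cre (Gria1, Mef2a, Tpm1, Tpm3, Fgfr2, Mapk9 and Mapk10) and 3 in the Purkinje layer (Gria4, H2afy and Mapk10). Those between the controls included Cacna1d and Pkm. The tables hold only listed events, so no share over all genes can be set beside these counts. Being listed does not mean that the homologous pair itself changed. Slc8a1, the sodium-calcium exchanger, was listed for a 107-nt coding exon that fell from 0.914 to 0.598 in Emx1-Cre at a coverage of 540 in the authors' table. Fyn, a Src-family kinase, was listed for a UTR exon of 70 nt, from 0.351 to 0.489 in Emx1-Cre in the authors' table. Gria4 in the Purkinje layer was listed for a 39-nt region that is not an annotated exon, 0.166 higher in group 2 by the authors' difference.

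YCAY within the exons did not separate the exon that fell from the one that rose. In Emx1-Cre, of 123 pairs with both sequences, YCAY was denser in the falling exon in 56 pairs, denser in the rising exon in 60 and equal in 7. The medians were 1.83 per 100 nt in falling and 1.82 in rising exons. In Gad2-Cre the counts were 46, 55 and 5 of 106, with medians of 1.70 and 1.62. Over 165262 annotated internal coding exons the median was 1.55 per 100 nt, and 81.8% held at least 1. In Erbb4 the falling 45-nt exon held 0 YCAY and the rising 75-nt exon 6, as the printed sequences show. In Dlg3 the rising 100-nt exon held 1 and the falling 46-nt exon 0, while in Dlg2 the rising exon held 4 and the falling one 0. These counts cover the exons only, since introns were not analysed here, and a match is no evidence of binding.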

How the data were processed

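Splicing events were quantified by the authors with Quantas (build mm10), according to the file names in the labels. The processing notes of the submitters also list kallisto and edgeR without a role. The aligner, the versions and the use of strand are not given in the sources. Per the file headers each table holds an inclusion level (a fraction) per group, which the authors deposited as 1 pooled value. The level columns of the Purkinje table, whose groups are not named, were not used. The difference of the levels, group 1 minus group 2, is the authors' value and was found equal to the levels' difference on every event of the other 3 tables within 3e-08. The coverage (a signal whose definition is not given) and the p-value with its FDR are also deposited by the authors, and no test across libraries was possible. The interval lists hold only the first-named isoform. Depth per library is unknown. Exons were located with GENCODE M21, and partner exons found from annotated junctions between the same flanks. YCAY was counted in exon sequences of GENCODE transcripts. Identity came from a global alignment (Biopython 1.88), apart from pairs of equal length printed above, which were compared position by position. Where a label holds several gene symbols, the gene was resolved by shared splice sites. The scripts were tested on simulated data.

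Genes to name were taken from the 20 genes with the largest difference in each cortical knockout table, 10 in each other table, genes in 3 tables, genes with opposite directions and listed members of the 42-gene list. Genes of these sets that the text does not describe are only in its counts. Dlg2, Cyfip1, Gnao1, Wdfy1 and the other coding pairs not joined by annotation were chosen after their values were seen. The members and lists were chosen with earlier results of these data known. Alternatives were a stricter FDR, coverage or difference, and other units of counting. Medians and counts stand beside those of all listed events. Intervals of shares are exact binomial intervals. Part of the results for the 42-gene list, between the controls, is not reported here.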

Additional observations from a re-analysis of the deposited data

How the results depend on the processing

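Of 61 alternatives over 15 results, 53 stayed within the 95% interval of the reported value and 8 moved outside it. Most alternatives are subsets of the same events, and intervals of small sets are wide, so this tally does not measure stability. The Purkinje share of genes with a lower 5′ exon, 58.3%, was 46.7% with an FDR of at most 0.01. It counts as staying because its interval runs from 36.6% to 77.9%. The median size of a difference moved by construction when only differences of at least 0.2 were kept: to 0.270 in Emx1-Cre, 0.274 in Gad2-Cre, 0.298 in the Purkinje layer and 0.295 between the controls. In Emx1-Cre it was also 0.204 with an FDR of at most 0.01 and 0.173 with a coverage of at least 40, beside 0.185 as deposited. The share of genes with a lower 5′ exon in the Gad2-Cre cKO was 53.1% with an FDR of at most 0.01, beside 59.2%. The share of events shared by both cortical tables that went the same way was 100% of 81 when only differences of at least 0.2 were kept, beside 97.9% of 190. The cause of these moves was not tested. No paired analysis was possible because the tables hold 1 pooled level per group, and for the same reason no replicate could be left out. The planned YCAY count in introns was not run for lack of a genome sequence, and the exonic count was added after the tables had been seen.

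Each table lists only events past the authors' thresholds, so nothing is known here of an event missing from a table. Coverage is given per comparison and not per group, which leaves the precision of a single level unknown. The 3′ exon is inferred from annotation, and 18 of the 334 checked events went against the order used here.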
